A study of Mus musculus with 107 samples.

Results

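The genes described here make up the nucleolar machinery that transcribes ribosomal RNA and cuts, modifies and folds it into ribosomal subunits. Members were chosen by symbol: Utp or Nop followed by a digit, any name beginning with Polr1, then Noc2l, Noc3l and Noc4l, and Fbl, Dkc1, Ncl, Npm1, Nolc1, Nhp2, Gar1, Imp3 and Imp4, without pseudogenes. The rule gave 40 of 21564 gene symbols, and used no measured value. One member, Polr1has, is a gene beside the Pol I subunit gene Polr1h on the other strand, which it does not overlap.

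RNA polymerase I copies the ribosomal RNA genes into a long precursor inside the nucleolus. The small subunit processome, built from the UTP-A and UTP-B complexes and many further proteins, assembles on the 5' end of that precursor, box C/D particles add methyl groups to it and box H/ACA particles convert uridines to pseudouridines. Fully grown mouse oocytes have stopped transcribing, including at their ribosomal genes, and live on stored messenger RNA whose poly(A) tails are lengthened or removed as meiosis proceeds, until the embryonic genome is switched on.

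RNA of single mouse eggs was copied by Smart-seq2, a full-length method primed on poly(A) that does not keep the strand, so the amount of a transcript and the length of its tail cannot be told apart. The 107 eggs came from C57BL/6J females of 2 to 3 months injected with 5 IU of pregnant mare serum gonadotropin 48 h before collection. Oocytes were held in 2.5 µM milrinone, matured in culture without it and collected 38 to 40 h after germinal vesicle breakdown. The activated group held 17 wildtype eggs given 10 mM strontium chloride for 2 h in calcium-free medium from 15 to 16 h after breakdown, a treatment that starts development without sperm. The 61 mutant eggs were mos -/- (Mos encodes the kinase that keeps eggs arrested in metaphase of the second meiotic division) and were named M1 (22 eggs), M2 (18 eggs) or M3 (21 eggs), names that the labels do not define. The 29 wildtype eggs were untreated. Batch 1 held 4 M1, 2 M2, 3 M3 and 5 wildtype eggs, and batch 2 held the rest. No label ties eggs to animals, so the eggs of each group and batch were added up, which gave 9 sums. The p-values measure the spread between these sums, which may be technical.

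Totals per egg ran from 44 to 9132471 counts, with 3 mutant eggs under 10000. The top 50 genes took 35.8% to 45.9% of the counts of 9 wildtype eggs in batch 2, while 16.4% to 30.1% was their share in the remaining 95 eggs above 10000 counts. The activated eggs filled a plate of their own, as did the wildtype eggs of batch 2, and no plate of batch 2 held both mutant and wildtype eggs. In that batch neither treatment nor genotype can be told apart from plate. In batch 1 the deposited egg table puts the 5 wildtype eggs and 2 mutant eggs on 1 plate and the other 7 mutant eggs on another. The activated group is 1 sum that was assumed to vary like the others. All 10 egg markers were detected in every sum, adding up to 6572 raw CPM (counts relative to the library total) in activated eggs, 10057 to 14810 in mutant eggs and 13759 in wildtype eggs of batch 2, and to 4529 to 9454 in mutant eggs and 8987 in wildtype eggs of batch 1. The 10 granulosa and cumulus markers added up to 92.2 raw CPM in the activated sum and 204 to 305 raw CPM in the other 8 sums, with 1 to 5 of them at 0, and the part of both lists in the results was not tested. Mos stood at 4.92 CPM in activated eggs, 5.47 and 12.5 CPM in M1 eggs of batches 1 and 2, 0.892 and 7.5998 CPM in M2 eggs, 1.51 and 3.40 CPM in M3 eggs, and 7.32 and 36.8 CPM in wildtype eggs. Every mutant sum was below the wildtype sum of its batch, but counts remained in all of them, and the labels do not say which part of the gene was removed, so the counts do not check them. The fold of mutant over wildtype eggs was -2.10 ± 0.40 on the log2 scale (SE; edgeR adjusted p = 0.00290), with 36.05% of the wildtype batch 2 counts in egg 45 and 73.3% of the M1 batch 1 counts in egg 6.

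Sequences are shown for members that the comparisons below call. Cytoplasmic polyadenylation elements (TTTTAT or TTTTAAT) and the polyadenylation hexamer (AATAAA or ATTAAA) near the end of the 3' UTR are the elements through which eggs control tails. Windows of 30 bases from GENCODE M21 transcripts (GRCm38) are printed in the transcript's sense, with the elements in capitals. Dkc1, Utp20 and Utp14b held both within the window, where the marked cytoplasmic polyadenylation element ended 24, 19 and 87 bases before the end of the UTR. The pair of Utp14b is thus far from that end, and its last 100 bases also hold 1 AATAAA that is not shown.
Dkc1: gagagaatatTTTTATTAAAagtctgaggt
Utp20: tacttgtatTTTTAATTAAAatgttttata
Utp14b: agatgacTTTTATTAAAgattcctagaagt
Utp4, Nop56 and Nop58 have short 3' UTRs of 107, 90 and 173 bases, with the hexamer alone in capitals.
Utp4: ccaaatcatgatAATAAAacaaagttattc
Nop56: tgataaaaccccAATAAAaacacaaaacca
Nop58: ctttgatacacaAATAAAatattttctttg
Of 36 members with a 3' UTR of at least 100 bases, 8 (22.2%) had a cytoplasmic polyadenylation element in the last 100 bases, against 2406 of 12428 tested genes (19.4%). The hexamer stood there in 26 members (72.2%), against 81.6% of tested genes. The pentamer ATTTA occurred in the 3' UTR of 19 members (52.8%), against 69.99%, and the members' UTRs were shorter, with a median of 830.5 against 1084.5 bases. These matches are descriptions of letters and not of bound sites.

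The E-box CACGTG, a palindrome bound by Myc and related factors, stood in the promoter of 8 of the 34 member genes with a RefSeq promoter (GRCm38.p6, 250 bases before to 50 after the start), or 23.5%, against 8.09% of 27025 genes. Those 8 were Imp4, Nop2, Polr1g, Utp14b, Utp18, Utp20, Utp25 and Utp4. The GC box GGGCGG, searched on both strands, stood in 21 of the 34 (61.8%), against 38.2%. Both motifs are set against all 27025 genes with a RefSeq promoter, tested or not, while the 3' UTR shares were set against tested genes. Promoters of Utp4 (chr8:106893390-106893689, plus strand), Utp20 (chr10:88826765-88827064, minus strand) and Polr1g (chr7:19359434-19359733, minus strand) are printed as examples, with the E-box in capitals. Against wildtype eggs Utp4 was called higher in mutant eggs, and Utp20 and Polr1g lower in activated eggs. Utp14b was called too, as higher in activated than in mutant eggs, and its promoter is not printed.
Utp4: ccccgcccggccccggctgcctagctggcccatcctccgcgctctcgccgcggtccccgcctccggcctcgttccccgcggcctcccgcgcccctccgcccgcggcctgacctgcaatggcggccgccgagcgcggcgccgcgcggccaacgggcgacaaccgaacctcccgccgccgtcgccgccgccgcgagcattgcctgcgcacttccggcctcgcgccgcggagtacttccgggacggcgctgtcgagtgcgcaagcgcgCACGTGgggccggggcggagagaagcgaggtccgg
Utp20: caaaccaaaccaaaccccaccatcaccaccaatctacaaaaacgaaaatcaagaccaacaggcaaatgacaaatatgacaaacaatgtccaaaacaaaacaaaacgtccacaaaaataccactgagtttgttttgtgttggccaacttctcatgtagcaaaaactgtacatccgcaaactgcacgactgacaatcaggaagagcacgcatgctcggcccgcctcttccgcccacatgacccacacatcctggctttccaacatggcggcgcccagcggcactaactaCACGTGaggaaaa
Polr1g: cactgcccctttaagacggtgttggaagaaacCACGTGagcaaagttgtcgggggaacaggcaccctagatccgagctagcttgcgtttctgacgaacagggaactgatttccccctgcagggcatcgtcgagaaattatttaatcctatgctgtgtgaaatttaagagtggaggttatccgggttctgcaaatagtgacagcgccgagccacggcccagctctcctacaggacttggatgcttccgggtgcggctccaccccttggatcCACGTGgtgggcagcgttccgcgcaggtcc
Polr1g held the E-box before and after its annotated start, while Utp4 and Utp20 held it once, after the start.

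Members covered a wide range of levels. Per kilobase of transcript and averaged over the 9 sums, Npm1, a nucleolar histone and ribosome chaperone, was highest at 188 CPM per kb. Noc4l, which works in small subunit assembly, followed at 87.6, Nop56, a core protein of box C/D particles, at 82.5, and Utp4 of the UTP-A complex at 54.5. The lowest members were Utp23 at 0.158 and Nop16 at 0.554 CPM per kb. Fbl, the methyltransferase of the same box C/D particles as Nop56 and Nop58, was at 1.27 CPM per kb, while Nop58 was at 22.4, so 3 proteins of 1 particle had transcripts at very different levels. Imp4 and Ncl have annotated 3' UTRs of 4886 and 5901 bases, which lower their values per length. Together the 40 members took 0.156% of counts in activated eggs, 0.152% to 0.234% in the 6 mutant sums and 0.169% and 0.178% in wildtype eggs of batches 1 and 2.

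**Figure D1:**
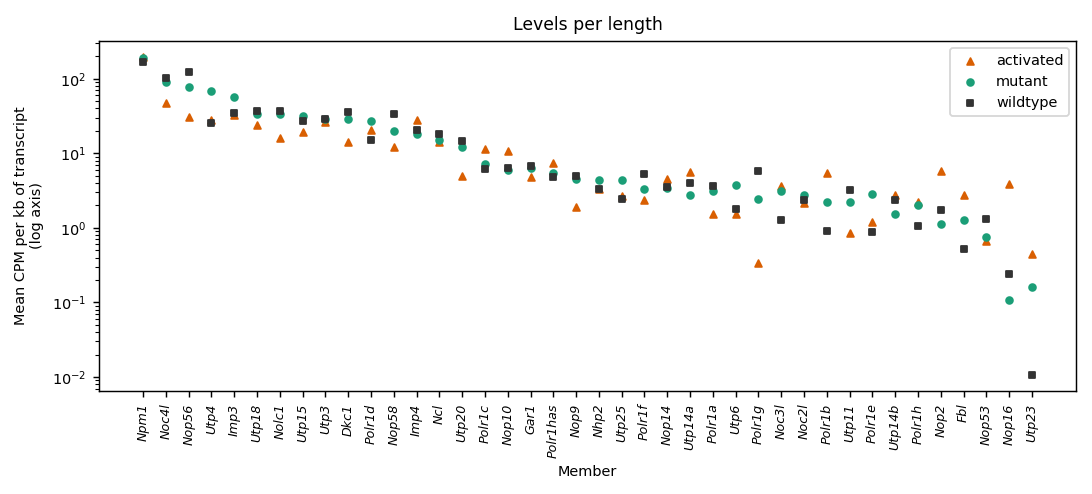
Mean CPM per kilobase of transcript (log axis) of each member, ordered by its mean over the 9 sums, in activated eggs (1 sum), mutant eggs (6 sums) and wildtype eggs (2 sums). Npm1 leads at 188 CPM per kb and Utp23 is last at 0.158.

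**Figure D2:**
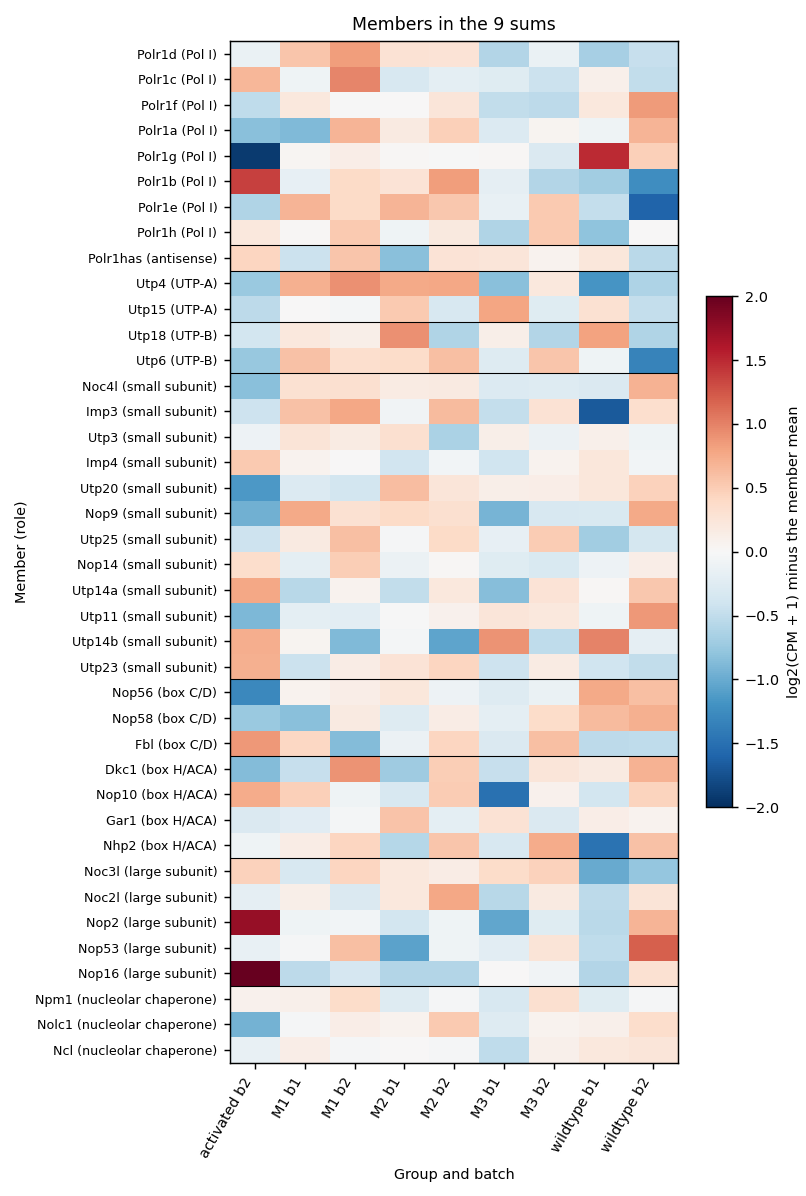
log2(CPM + 1) of each member minus its mean over the 9 sums, with members grouped by role and columns by group and batch (b1, b2). Blue cells of Nop56, Nolc1, Utp20 and Polr1g mark the activated column, and red cells of Utp4 the M1 and M2 columns. Dkc1 is blue in the activated column and also in the mutant columns of batch 1.

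In activated eggs, 8 of the 40 members were lower than in wildtype eggs and 1 was higher (edgeR quasi-likelihood test, adjusted p under 0.05). That is 22.5% of members, against 13% of the 13832 genes tested, of which 7.33% were lower and 5.66% higher. Calls come more easily for abundant genes, and among the 14 members of at least 5 log2 CPM 0 were higher and 6 lower, against 8.33% and 17% of all such genes. The median log2 fold change of the members was -0.08, against 0.15 over all genes. The activated sum was the lowest of the 5 sums of batch 2 for 18 members and the highest for 10, where 24.3% and 29.8% of all genes did so. Without the batch term edgeR called 1 member and 196 genes, and over sums per plate 3 members and 666 genes. As means over eggs of log2(raw CPM + 1), with no test, the differences within batch 2 were smaller than the fitted folds for all 8 lower members. They were -1.52 for Nop56, -1.18 for Nop58, -1.05 for Dkc1, -0.82 for Nolc1, -0.35 for Noc4l, -0.79 for Polr1a and -0.88 for Polr1g, whose activated level of 0.751 CPM was below the added 1. For Utp20 the means were 5.35 in activated and 6.57 in wildtype eggs.

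Transcripts of both abundant box C/D members, Nop56 and Nop58, were lower. Nop56 (chr2:130274430-130279313), a core protein of the particle, had 58.4 CPM in activated eggs, 152 and 159 CPM in M1 eggs of batches 1 and 2, 169 and 136 in M2 eggs, 120.9 and 131 in M3 eggs, and 247 and 221 in wildtype eggs. The activated sum was below all 8 others and the wildtype sums were above all others. The log2 fold change of activated over wildtype eggs was -1.96 ± 0.32 (SE; edgeR adjusted p = 0.000604), and of activated over mutant eggs -1.26 ± 0.29 (edgeR adjusted p = 0.0157).
Nop58 (chr1:59684971-59719044), its partner in the particle, had 21.1 CPM in activated eggs, 19.6 and 40.9 in M1, 29.8 and 39.7 in M2, 31.2 and 46.5 in M3, and 56.1 and 59.7 in wildtype eggs. The activated sum was the lowest of batch 2, and the M1 sum of batch 1 lay slightly below it. The fold was -1.74 ± 0.43 over wildtype eggs (edgeR adjusted p = 0.0110) and -0.94 ± 0.38 over mutant eggs (edgeR adjusted p = 0.184). Small RNA genes are annotated within both genes, and their reads cannot be told apart from the host's where they overlap exons. Fbl, the third box C/D member, had 3.28 CPM in activated eggs and 0.621 and 0.641 CPM in wildtype eggs. Its fold of 2.33 ± 1.42 did not pass the test (edgeR adjusted p = 0.337). The gene of a further box C/D protein, Snu13, is outside the rule and was called higher in activated eggs, as given below.

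Dkc1 (chrX:75095854-75109777), the pseudouridine synthase of box H/ACA particles, had 39.8 CPM in activated eggs, 53.0 and 137.8 in M1, 44.8 and 104 in M2, 53.2 and 87.2 in M3, and 83.8 and 120 in wildtype eggs. The activated sum was the lowest of all 9, and batch 2 was above batch 1 in each of the other groups. The fold was -1.83 ± 0.38 over wildtype eggs (edgeR adjusted p = 0.00350) and -1.37 ± 0.34 over mutant eggs (edgeR adjusted p = 0.0249). The other H/ACA proteins Nop10, Gar1 and Nhp2 had folds between -0.28 and 0.38 over wildtype eggs, none called.

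Nolc1 (chr19:46075863-46085530), a nucleolar phosphoprotein that accompanies both kinds of particle, had 58.4 CPM in activated eggs, 112 and 124.3 in M1, 120 and 163 in M2, 94.5 and 119 in M3, and 122 and 145.2 in wildtype eggs. The activated sum lay below the other 8, whose values overlapped between mutant and wildtype. The fold was -1.34 ± 0.32 over wildtype eggs (edgeR adjusted p = 0.00842) and -1.19 ± 0.29 over mutant eggs (edgeR adjusted p = 0.0220). The other nucleolar chaperones, Npm1 and Ncl, had folds of 0.05 and -0.43, not called.

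Utp20 (chr10:88746607-88826804), a large scaffold of the small subunit processome, had 44.4 CPM in activated eggs, 82.7 and 77.7 in M1, 154 and 119 in M2, 108.6 and 110 in M3, and 116.9 and 137.9 in wildtype eggs. Again the activated sum was below all others. The fold was -1.50 ± 0.33 over wildtype eggs (edgeR adjusted p = 0.00566) and -1.23 ± 0.31 over mutant eggs (edgeR adjusted p = 0.0249). Noc4l (chr5:110648418-110653417) had 96.9 CPM in activated eggs, 214 and 218 in M1, 194 and 197 in M2, 144.1 and 146 in M3, and 141.8 and 284 in wildtype eggs, with a fold of -1.22 ± 0.35 over wildtype eggs (edgeR adjusted p = 0.0249). One wildtype egg, replicate 45, held 54.2% of the Noc4l counts of its sum, and without it the fold was -0.61 and not called (edgeR adjusted p = 0.197).

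Of the 8 Pol I subunit genes, 1 was higher and 2 were lower. Polr1b (chr2:129100995-129126594), the second largest catalytic subunit, had 21.9 CPM in activated eggs, 6.998 and 10.6 in M1, 9.81 and 14.8 in M2, 6.85 and 4.96 in M3, and 4.53 and 2.78 in wildtype eggs. It was highest in the activated sum, with counts in 16 of 17 activated eggs and 7 of 24 wildtype eggs of batch 2, and its fold was 2.50 ± 0.63 (edgeR adjusted p = 0.0128), or 2.00 without wildtype batch 2, which was not called (edgeR adjusted p = 0.0886). At an equal depth of 60000 counts it was found in 52.9% of activated and 8.33% of those wildtype eggs.
Polr1a (chr6:71909053-71984935), the largest subunit, had 14.2 CPM in activated eggs, 13.7 and 42.7 in M1, 29.7 and 36.7 in M2, 21.5 and 27.4 in M3, and 24.8 and 42.8 in wildtype eggs, and its fold was -1.58 ± 0.49 (edgeR adjusted p = 0.0410). The activated sum was the lowest of batch 2. In batch 1, M1 egg 6 held 60.1% of the M1 counts, and without that egg the fold was -1.68 and no longer called (edgeR adjusted p = 0.0976). Of 21 tested alternatives 12 called Polr1a, and the adjusted p of edgeR reached 0.384, without the batch term.
Polr1g (chr7:19356014-19359483, listed as Cd3eap in the annotation), a subunit specific to Pol I, had 0.751 CPM in activated eggs, from 11 counts, 5.72 and 6.22 in M1, 5.67 and 5.54 in M2, 5.69 and 4.39 in M3, and 17.6 and 8.12 in wildtype eggs. All mutant sums lay between the activated and the wildtype sums. The fold was -3.88 ± 0.85 over wildtype eggs (edgeR adjusted p = 0.00539) and -2.70 ± 0.77 over mutant eggs (edgeR adjusted p = 0.0504). The remaining 5 Pol I subunit genes were not called, with folds between -1.20 for Polr1f and 0.80 for Polr1c.

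The 5 members that act in large subunit assembly had no call. Nop16 was nearly absent elsewhere, with 99 counts (6.76 CPM) in activated eggs, 10 counts or fewer in each mutant sum, and 0 and 4 counts in wildtype eggs. It had counts in 12 of 17 activated eggs and 1 of 24 wildtype eggs of batch 2. These wildtype eggs were shallower, with a median total of 207420 counts against 796582 in activated eggs. With eggs thinned to equal depth, Nop16 was found in 3 of 17 activated and 0 of 24 of those wildtype eggs. Of the activated counts 1 egg held 36.4%, and the test did not call Nop16 (edgeR adjusted p = 0.188). Nop2, a methyltransferase of the large subunit's RNA, had 15.0 CPM in activated eggs and 2.27 and 6.63 CPM in wildtype eggs (edgeR adjusted p = 0.210). Of that wildtype sum of batch 2, egg 45 held 74.2%.

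**Figure D3:**
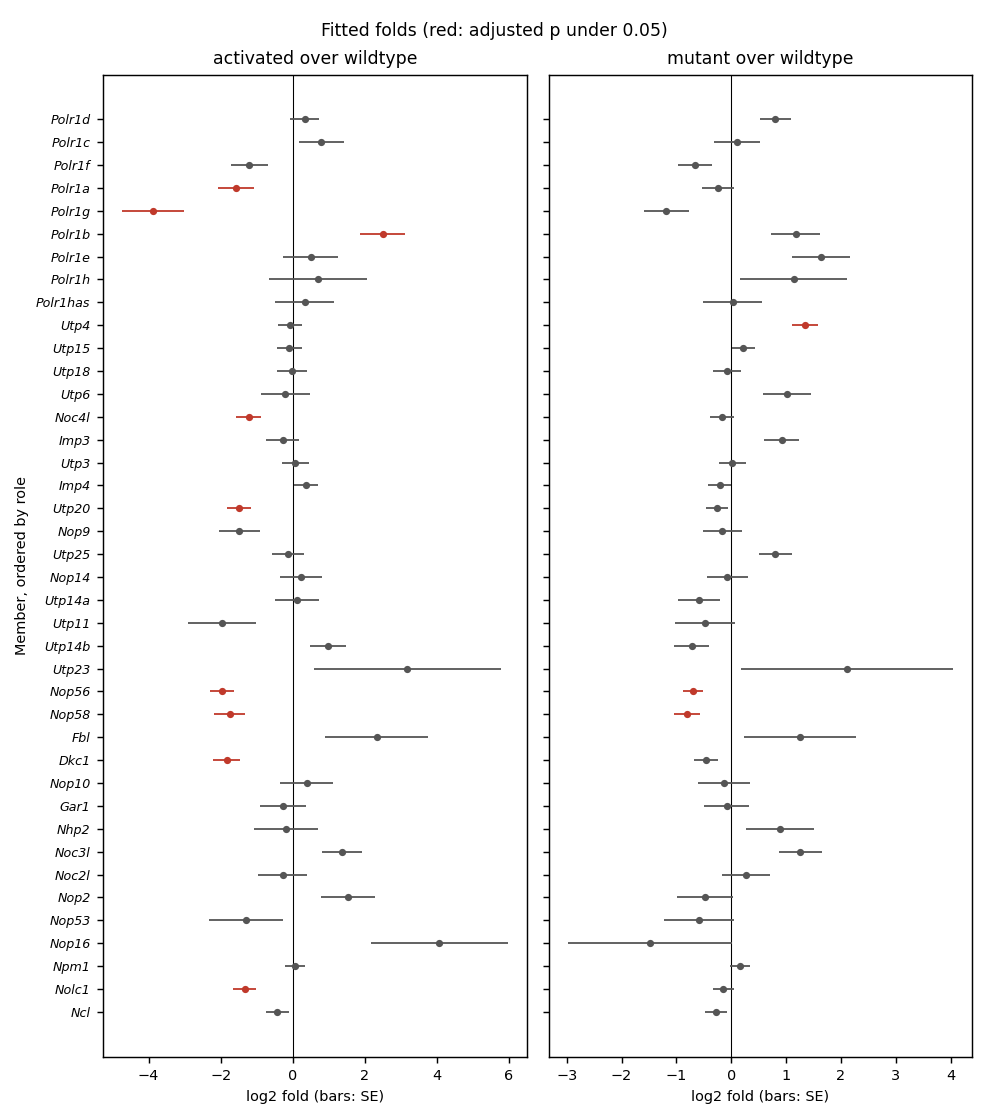
Fitted log2 fold change with its SE for each member, ordered by role, of activated over wildtype eggs (left) and mutant over wildtype eggs (right), with calls in red. The left panel has 8 red points below 0 and 1 above, and the right panel has 2 below and 1 above.

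The other 27 members were called in no comparison. Npm1, the most abundant, had 323 CPM in activated eggs, 324 and 390 in M1, 253 and 299 in M2, 243 and 378 in M3, and 256 and 298 in wildtype eggs. These values overlapped, with folds of 0.05 ± 0.28 for activated and 0.16 ± 0.18 for mutant over wildtype eggs (edgeR adjusted p = 0.940 and 0.679). Utp18, the leading member of the UTP-B complex, had folds of -0.02 ± 0.41 and -0.07 ± 0.26 (edgeR adjusted p = 0.988 and 0.950). Noc3l, a large subunit assembly factor, had 14.5 CPM in activated eggs, 8.02 to 14.4 CPM in the 6 mutant sums, and 4.59 and 5.56 CPM in wildtype eggs. Both wildtype sums lay below all others, yet the mutant fold of 1.26 ± 0.40 missed the threshold (edgeR adjusted p = 0.0534). Polr1e, a Pol I subunit, stood at 1.64 ± 0.53 in mutant over wildtype eggs and missed it as well (edgeR adjusted p = 0.0594). Fitted folds of the uncalled members ran from -1.97 for Utp11 to 4.07 for Nop16 in activated eggs and from -1.48 for Nop16 to 2.11 for Utp23 in mutant eggs, the extremes being members of few counts. Exons of Nop9 overlap the opposite strand of Cideb over 29.9% of their length and those of Noc2l overlap Samd11 over 20.9%, so those values are uncertain without strand.

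Set directly against the mutant eggs, activated eggs had 5 members lower and 1 higher, or 15% of members, against 4.84% of all genes (1.42% higher and 3.43% lower). Of the 14 abundant members 0 were higher and 5 lower, against 1.64% and 8.24% of such genes. The comparison with wildtype eggs shares the activated sum with this one. Besides Nop56, Dkc1, Nolc1 and Utp20, the lower members held Utp4, at -1.43 ± 0.33 (edgeR adjusted p = 0.0174), whose call was lost without both M1 egg 6 and wildtype egg 45 (edgeR adjusted p = 0.0876). The Dkc1 and Nolc1 calls were lost without M2 batch 2 (edgeR adjusted p = 0.0976 and 0.101), and that of Dkc1 also without M1 batch 2 (edgeR adjusted p = 0.101). Over sums per plate, and also without the batch term, 0 members were called. The higher one was Utp14b (chr1:78658038-78671512), a retrotransposed copy of the processome gene Utp14a, with 20.6 CPM in activated eggs, 12.6 and 6.03 in M1, 11.7 and 5.28 in M2, 23.4 and 8.14 in M3, and 24.98 and 10.5 in wildtype eggs. It was highest in the activated sum of batch 2, but the M3 and wildtype sums of batch 1 were higher. Its fold over mutant eggs was 1.69 ± 0.42 (edgeR adjusted p = 0.0241), and the call was lost without any of the 3 mutant sums of batch 2 (edgeR adjusted p of 0.0535 to 0.0787). Utp14b shares 244 bases, or 3.18% of its exons, with Acsl3, and reads of the shared part cannot be told apart.

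In mutant eggs, 1 member was higher and 2 were lower than in wildtype eggs, or 7.5% of members, against 9.38% of all genes (5.36% higher and 4.03% lower), so the share was near the background. All 3 were among the 14 abundant members, where 8.7% of such genes were higher and 9.71% lower. The median log2 fold change was -0.08, against 0.06 over all genes. In both batches all 3 mutant sums were above wildtype for 7 members (Noc3l, Polr1b, Polr1d, Polr1e, Polr1h, Utp25 and Utp4) and below it for 7 (Ncl, Nop56, Nop58, Polr1f, Polr1g, Utp14a and Utp14b), where 15.6% and 13.5% of all genes did so. Without the batch term edgeR called 0 members and 51 genes, and over sums per plate 1 member and 409 genes.

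Utp4 (chr8:106893636-106923088), also known as cirhin, was the member that rose. It had 62.7 CPM in activated eggs, 173 and 201 in M1, 179 and 182 in M2, 58.8 and 122.99 in M3, and 46.4 and 68.6 in wildtype eggs. M1 and M2 sums were above all others, while M3 was close to wildtype in batch 1. The fold of mutant over wildtype eggs was 1.35 ± 0.24 (edgeR adjusted p = 0.00155), and mutant sums averaged 2.95 times the wildtype sum within batch 1 and 2.46 times within batch 2.
Single eggs varied widely. Median raw CPM per egg was 151 and 120 in M1, 175 and 151 in M2, 49.9 and 138.5 in M3, and 43.8 and 18.6 in wildtype eggs of batches 1 and 2. In batch 1 single M1 eggs had 458.2, 271.5, 31.01 and 30.17 raw CPM, and M3 eggs 106.5, 49.9 and 21.05. Wildtype eggs of that batch ran from 27.5 to 50.8 raw CPM. Only part of its M1 and M3 eggs thus lay above wildtype, while its M2 eggs, 2 in number, did so. M1 egg 6 of batch 1 held 59.3% of the counts of its sum and wildtype egg 45 held 51.4%. Without wildtype egg 45 the fold was 1.73 (edgeR adjusted p = 0.000245), without M1 egg 6 it was 1.21 (edgeR adjusted p = 0.00582), and without both it was 1.495 (edgeR adjusted p = 0.00446). Utp15, the other UTP-A member, had a fold of 0.22 and was not called.

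Nop56 and Nop58 were the members that fell in mutant eggs, by 0.70 ± 0.18 (edgeR adjusted p = 0.0217) and 0.81 ± 0.24 (edgeR adjusted p = 0.0439) on the log2 scale. Within batches 1 and 2, mutant sums averaged 0.598 and 0.642 times wildtype for Nop56, and 0.479 and 0.710 times for Nop58. The Nop58 call was lost without M1 egg 6 (edgeR adjusted p = 0.0512), without any of 5 single sums (adjusted p up to 0.418, without wildtype batch 1) and without the 9 wildtype eggs with many counts in few genes (edgeR adjusted p = 0.113). The Nop56 call was lost without any of 4 single sums (edgeR adjusted p of 0.0544 to 0.115). Over sums per plate neither Nop56 nor Nop58 was called (edgeR adjusted p = 0.134 and 0.148).

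**Figure D4:**
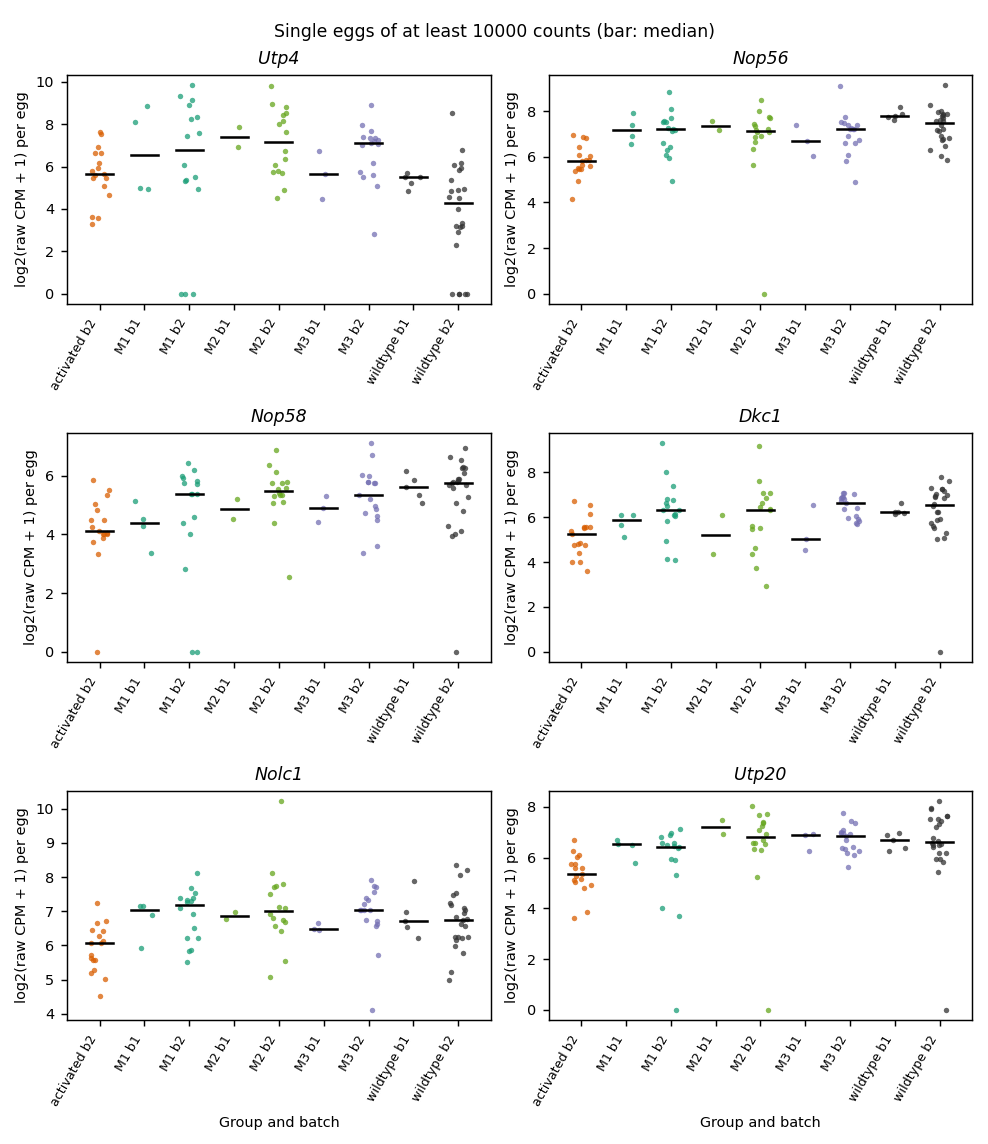
Raw CPM per egg, as log2(CPM + 1), for 6 members in each group and batch, with a bar at the median, in eggs of at least 10000 counts. Utp4 spreads from 0 to 921 CPM in M1 eggs of batch 2, while Nop56 keeps to 193 to 291 CPM in wildtype eggs of batch 1.

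By mutant group, M1 eggs had 3 members higher than wildtype eggs, or 7.5% against 5.65% of all genes (3.86% higher and 1.79% lower). They were Utp4 at 1.73 ± 0.27 (edgeR adjusted p = 0.00128), the Pol I and Pol III subunit Polr1d at 1.31 ± 0.32 (edgeR adjusted p = 0.0234) and the processome protein Imp3 at 1.35 ± 0.38 (edgeR adjusted p = 0.0474). Imp3 (chr9:56937475-56938398) had 30.1 CPM in activated eggs, 61.4 and 69.9 in M1, 38.6 and 63.2 in M2, 28.6 and 49.4 in M3, and 11.98 and 51.5 in wildtype eggs, of which egg 45 held 70.5% in batch 2. The other wildtype eggs of batch 2 had 14.2 raw CPM. Without egg 45 the M1 fold was 2.19 (edgeR adjusted p = 0.000193), and without the wildtype sum of batch 1 it was 0.64 and not called (edgeR adjusted p = 0.324). Polr1d (chr5:147077050-147111597) had 24.4 CPM in activated eggs, 40.2 and 49.1 in M1, 33.2 and 32.8 in M2, 17.6 and 24.5 in M3, and 16.7 and 19.2 in wildtype eggs. Its M1 sums were the highest of all 9. Without M1 egg 6 neither was called (edgeR adjusted p = 0.0519 for Polr1d and 0.0667 for Imp3).
Utp4 lost its M1 call without M1 batch 1 (edgeR adjusted p = 0.0807), and Polr1d lost its own without any of 4 single sums (edgeR adjusted p of 0.0577 to 0.200).
M2 eggs had Utp4 higher at 1.70 ± 0.27 (edgeR adjusted p = 0.00149), or 2.5% of members against 4.58% of all genes (3.31% higher and 1.27% lower). M3 eggs had Nop56 lower at -0.89 ± 0.23 (edgeR adjusted p = 0.0348), or 2.5% against 5.25% (3.25% higher and 2% lower). The M2 call was lost without M2 batch 1 (edgeR adjusted p = 0.0687), and the M3 call without any of 4 single sums (edgeR adjusted p of 0.0528 to 0.285).
Between mutant groups edgeR called 0 of 38 members and 0 of 11009 genes (0% each) in M2 over M1, M3 over M1 and M3 over M2 eggs, with 1, 6 and 3 members at an unadjusted p under 0.05. The lowest adjusted p was 0.520, for Polr1d in M3 over M1 eggs at -1.02 ± 0.28, and Utp4 stood at -0.76 ± 0.28 (edgeR adjusted p = 0.591). A fit of the mutant fold by batch took the 3 mutant sums of a batch as repeats, against 1 wildtype sum per batch. It called a difference for 0 of 38 members (0% of 12338 genes), with 4 at an unadjusted p under 0.05. With 1 wildtype sum per batch, 0 calls do not show that the folds were equal. DESeq2 and limma voom also called 0 members in these comparisons.

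Other genes of ribosome production, from lists of named proteins, were counted in the same fits. The shares of all genes to read them against were 5.66% higher and 7.33% lower in activated over wildtype, 5.36% and 4.03% in mutant over wildtype, and 1.42% and 3.43% in activated over mutant eggs. Of 36 further processome genes 3 were higher and 7 lower in activated than in wildtype eggs, with Dnttip2 at -2.85 ± 0.35 (edgeR adjusted p = 6.23e-05) and Rcl1 at 2.06 ± 0.51 (edgeR adjusted p = 0.0107), and 5 were higher and 1 lower in mutant eggs, with Emg1, an RNA methyltransferase, at 2.49 ± 0.40 (edgeR adjusted p = 0.000870). Of 11 genes for Pol I initiation, termination and regulation 3 were lower in activated eggs, and those were the Pol I initiation factor Taf1a at -1.96 ± 0.33, the topoisomerase Top1 at -1.46 ± 0.33 and Tcof1 (treacle) at -1.25 ± 0.31, and 0 were called in mutant eggs (edgeR). Of 15 exosome and trimming genes 4 were lower in activated eggs, among them Exosc3 at -1.77 ± 0.37, and 2 in mutant eggs, Exosc8 at -1.04 ± 0.19 and Exosc2 at -1.54 ± 0.30. Of 41 large subunit assembly genes 2 were higher and 5 lower in activated eggs, and 2 higher and 3 lower in mutant eggs. Among these Nifk was higher in both, at 2.57 ± 0.50 in activated and 2.72 ± 0.39 in mutant eggs, and Rrp1b lower in both, at -1.87 ± 0.33 and -0.97 ± 0.19, with the wildtype sums shared between the comparisons. Of 13 further snoRNP genes 1 was higher in activated eggs, the box C/D protein Snu13 at 1.64 ± 0.47, and 0 were called in mutant eggs. Of 22 Pol II and Pol III subunit genes 2 were higher and 1 lower in activated eggs, and 4 were higher in mutant eggs. Of 81 cytoplasmic ribosomal protein genes 2 were higher and 1 lower in activated eggs, and 3 higher and 4 lower in mutant eggs. Set against mutant eggs, activated eggs had 2 of the 11 Pol I genes, 4 of the 36 processome genes, 3 of the 41 large subunit genes and 1 of the 22 polymerase genes lower, and 1 of the 81 ribosomal protein genes higher. List medians over wildtype eggs ran from -1.06 (exosome) to 0.74 (Pol II and Pol III) in activated eggs, with 0.15 over all genes, and from -0.46 (exosome) to 0.30 (ribosomal proteins) in mutant eggs, with 0.06 over all genes.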

How the data were processed

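Counts were deposited by the authors as whole reads per gene symbol and egg, aligned with STAR and counted with HTSeq on GRCm38 (mm10), per the submitters' processing notes. Their versions, the gene models and the strandedness were not given in the sources used here. The Growths column of the deposited egg table is a whole number per egg that the file does not define. Counts were summed per group and batch and tested with edgeR 4.0.16 (R 4.3.3): TMM scaling, filterByExpr with a minimum count of 10, batch as a term, a quasi-likelihood fit over all groups, and Benjamini-Hochberg adjustment over all 13832 genes tested. Mutant groups were compared over sums per plate of the library name, which holds batch 1 as 1 plate, with plate as a term. The 9 sums held 5436993 to 36209306 counts. CPM in the text is TMM-scaled unless called raw. All 40 members passed the filter, and 38 passed it in the comparisons between mutant groups and between batches. Named members are those called in any comparison and the highest per length of each role, and from each further list up to 3 called genes by p. Members named beyond these (Fbl, Nop16, Nop2, Polr1e, Utp15 and those giving a range) were chosen after their values were seen. Members and gene lists were chosen with earlier results of these data known.

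Alternatives were other scalings (RLE, upper quartile), DESeq2 1.42.0, limma voom (limma 3.58.1), no expression filter, eggs thinned to 60000 counts, eggs or sums left out, mean log2 CPM over eggs (without a test), no batch term and sums per plate. Leaving out wildtype egg 45 and M1 egg 6 was chosen after seeing the data. Simulated data held the 13832 genes without a batch effect, and the changed genes all had a mean above 4 log2 CPM. There the mutant comparison recovered 64 of 100 genes changed 2-fold and 100 of 100 changed 4-fold, with 12 false calls. The activated comparison recovered 11 of 100 and 87 of 100, with 6 false calls. Recovery was not measured for less abundant genes, which include many members. Lengths, coordinates and 3' UTRs came from GENCODE M21. Smart-seq2 has no molecular identifiers, so intervals cover counting error only.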

Additional observations from a re-analysis of the deposited data

Results flagged for a closer look

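Dkc1 in wildtype eggs of batch 1 had 97.7 raw CPM in the egg numbered 1, against 74.9 in the next and 70.3 in the lowest of the 5 eggs, a gap of 0.832 of the group's range. Of 36 sets of eggs examined in this way it was the only one to stand out. Chance gives about 1 in 20 sets, so 1 among 36 is not unusual.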

How the results depend on the processing

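No member called in a comparison changed direction there in any alternative. Without the batch term the members called fell to 0 in mutant over wildtype, 1 in activated over wildtype, 0 in activated over mutant and 0 in M1, M2 and M3 over wildtype, with 51, 196 and 35 genes called in the first 3 comparisons. Sums per plate gave 1, 3 and 0 members (409, 666 and 161 genes), 1 for M1 and 0 for M3. DESeq2 called 6 members in mutant over wildtype, 1038 genes in activated over mutant, and 5, 3 and 2 members for M1, M2 and M3. Limma voom called 6 members in mutant over wildtype. Without a filter the counts were 6 in mutant over wildtype, 11 members and 1099 genes in activated over mutant, 3 for M2 and 2 for M3. Thinned eggs gave 3 for M2 and 2 for M3, and M1 had 1 without the 9 wildtype eggs with many counts in few genes.

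Leaving out 1 sum at a time gave 1 to 3 members (755 to 1262 genes) in mutant over wildtype, 6 to 10 (1433 to 2106 genes) in activated over wildtype, 3 to 10 (380 to 1119 genes) in activated over mutant, and 0 to 3, 0 to 2 and 0 to 1 for M1, M2 and M3. The lowest counts came without M1 batch 1 in mutant over wildtype (1) and in M1 (0), without wildtype batch 2 in activated over wildtype (6), and without M2 batch 2 in activated over mutant (3), which had 10 without either wildtype sum. M2 had 0 without its batch 1 sum and 2 without wildtype batch 2, and M3 had 0 without either of its sums. Without wildtype egg 45 the counts were 5 in mutant over wildtype (1695 genes), 4 for M1 and 3 each for M2 and M3, without M1 egg 6 there was 1 for M1, and without both there were 2 each for M2 and M3. Of 22 alternatives with a test Utp4 in mutant over wildtype eggs was called in 21, Nop56 in 16 and Nop58 in 12. Means of log2(raw CPM + 1) over eggs, with no test, also moved Utp4 to 2.03 in mutant and 2.70 in M2 over wildtype and -0.97 in activated over mutant, and Polr1d and Imp3 to 2.40 and 2.06 in M1 over wildtype. Between mutant groups and between batches 0 members were called in every alternative run. No paired analysis was possible because replicate numbers name single eggs and the sums carry none. Leaving out single eggs was chosen after seeing the data, and the cause of each change was not tested. The activated comparison rests on 1 sum, and 2-fold changes were mostly below what it could call.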

Other observations

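The deposited egg table, whose Growths column is not defined there, divides the 17 activated eggs into 8 with a Growths value of 1 and 9 with a value of 2. Summed over eggs, Nolc1 had 46.8 raw CPM (exact Poisson interval 41.99 to 52.0) in the eggs with 2 and 83.0 (76.0 to 90.6) in those with 1. Utp4 had 54.9 (49.7 to 60.6) in the eggs with 2 and 83.7 (76.6 to 91.3) in those with 1. The medians per egg were 48.5 and 51.4 raw CPM for Utp4, and the highest egg, at 198 raw CPM, held 158 of the 514 counts of the eggs with 1. Nop56, Utp20 and Utp14b also had intervals that stayed apart. They had 57.5, 41.8 and 17.2 raw CPM in the eggs with 2, and 70.3, 55.7 and 28.5 in those with 1. For Dkc1, Imp3, Noc4l, Nop58, Polr1a, Polr1b, Polr1d and Polr1g the intervals overlapped. These intervals cover counting error only, and no test was made over eggs. All 40 members together had 1440 raw CPM in the eggs with 2 and 1711 in those with 1.

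Wildtype egg 45 of batch 2 was the top egg for 18 of 39 members with counts in its sum, although it held 8.25% of that sum's counts. The members took 0.425% of its counts, the highest share among wildtype eggs of that batch, whose median was 0.155%. Its Imp3 level was 379 raw CPM against 14.2 over the other eggs, and its Noc4l level 1605 against 122.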
